A study of Mus musculus with 21 samples.

Results

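Cell adhesion genes of neurons were followed here in the DNA methylation profile of a cell type that is not a neuron, the synovial fibroblast. The genes belong to 10 families, taken by the start of the gene name in the deposited tables: protocadherins (Pcdh), contactins (Cntn), contactin-associated proteins (Cntnap), neurexins (Nrxn), neuroligins (Nlgn), leucine-rich repeat transmembrane proteins (Lrrtm), teneurins (Odz), CUB and sushi proteins (Csmd), Down syndrome cell adhesion molecules (Dscam) and Fat cadherins. They account for 244 of the 49307 listed regions and 55 of the 9615 genes named there. The region counts are 67 of 13125 at 3 weeks, 66 of 11975 at 8 weeks, 45 of 7309 at 11 weeks and 66 of 16898 after TNF.

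Synovial fibroblasts line the joint and were cultured to passages 4 to 5 from mice of CBA x C57BL/6J background. Tg197 mice carry a human TNF transgene and develop polyarthritis. The study compared Tg197 with wild-type (WT) cells at 3, 8 and 11 weeks of age, termed early, established and late in the series' design text, and WT cells of 8 weeks exposed to TNF with untreated WT cells of 8 weeks. The 7 groups had 3 samples each, 21 in all. The dose and duration of the TNF exposure, the sex of the mice, and whether replicates were separate animals or cultures are not given in the labels, so the error behind a p-value is the variation among these libraries and could be technical.

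In MethylCap-seq a methyl-CpG-binding protein captures methylated DNA fragments, which are then sequenced. The value of a region is its normalized read number, and it follows both the methylation and the CpG content of the region. In a culture, a change in the share of cells that are methylated and a change within each cell cannot be told apart. A region is called gained where capture was higher in the Tg197 or TNF-treated cells than in WT cells, and lost where it was lower. A region passed where limma gave a Benjamini-Hochberg adjusted p under 0.05 over all regions of its table. Since the authors listed regions because they differed, passing is the usual outcome, and the counts over all members stand beside the share of all listed regions that passed. The counts of single families and genes are to be read against the same shares. Fold changes are differences of mean log2(normalized reads + 1), and coordinates are in mm9.

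Clustered protocadherins (Pcdha, Pcdhb and Pcdhg) lie in tandem arrays. Each neuron switches on its own few of their variable promoters, a choice tied to CpG methylation of those promoters and to the looping factor CTCF, and the proteins let branches of a neuron recognise their own kind. Neurexins on the sending side of a synapse bind neuroligins and Lrrtm proteins on the receiving side, contactins and their Cntnap partners hold axon and glial membranes together, and teneurins bind latrophilins across the gap. Fat proteins are very large cadherins that also act outside the nervous system, in planar polarity and growth control. The cadherin best known from synovial fibroblasts is Cdh11, which the naming rule does not take in.

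The 3 upstream sequences below show how the stretches before the annotated starts differ in CpG. They hold the 250 bases before the start that RefSeq gives (GRCm38.p6, gene strand, 5′ to 3′), with each CpG in capitals, since CpG is the unit of capture.
Pcdh19: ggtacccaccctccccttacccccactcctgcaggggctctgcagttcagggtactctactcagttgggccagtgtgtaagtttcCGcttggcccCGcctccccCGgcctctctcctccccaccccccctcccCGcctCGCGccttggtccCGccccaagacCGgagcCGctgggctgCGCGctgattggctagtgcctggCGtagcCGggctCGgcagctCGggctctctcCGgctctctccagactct
Fat2: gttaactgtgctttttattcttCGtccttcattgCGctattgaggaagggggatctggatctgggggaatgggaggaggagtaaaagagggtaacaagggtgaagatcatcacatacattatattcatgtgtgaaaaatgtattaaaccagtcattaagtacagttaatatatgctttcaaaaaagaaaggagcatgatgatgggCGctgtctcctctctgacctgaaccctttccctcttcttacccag
Odz2: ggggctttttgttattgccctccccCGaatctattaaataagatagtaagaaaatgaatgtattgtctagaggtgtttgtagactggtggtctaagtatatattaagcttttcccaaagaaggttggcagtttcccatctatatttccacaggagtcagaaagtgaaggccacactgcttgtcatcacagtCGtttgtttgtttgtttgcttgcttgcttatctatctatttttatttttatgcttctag
The Pcdh19 window (chrX:133688994-133689243, minus strand) holds 16 CpG, more than 74.6% of the 32851 windows in the RefSeq table. The Fat2 window (chr11:55312258-55312507, minus strand) holds 3 and the Odz2 window (chr11:36944242-36944491, minus strand, under the current symbol Tenm2) holds 2, against a median of 6, and 92.1% of windows hold at least 1. CpG reads the same on both strands. The Fat2 and Odz2 windows end in a pyrimidine-rich run and ag, the letters that also close introns, and whether these annotated starts are used as promoters was not tested. Of the 25 genes looked up, 7 had an entry and 4 a start that matched the listed one within 60 bp. By distance from the start, a listed region of Pcdh19 covers the printed stretch, while those of Fat2 and Odz2 lie inside the genes.

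Read totals over the listed regions differed between the tables. The reads that could be recovered per library, counted over listed regions, numbered 2230884 to 2875554 in the table of 3 weeks and 1285306 to 1858694 in that of TNF, but 695108 to 1143699 for 8 weeks and 385155 to 544797 for 11 weeks. The same WT libraries of 8 weeks held 767619 to 1143699 reads in the 8-week table and 1285306 to 1858694 in that of TNF. These totals thus follow which regions were listed and do not measure depth. How many reads a library held in all is not known. Libraries 1 and 2 of the TNF-treated cells were identical in every value and count as 1 sample, so that comparison has n = 2 against n = 3, while the others have n = 3 per group. The WT libraries of 8 weeks serve both the 8-week and the TNF table, and results of these tables share them. Capture does not measure expression, so the cell type could not be checked by its markers. Of 12 fibroblast marker genes 1 to 3 had a listed region in each table, of 8 neuron markers 1 or 2, of 8 Schwann cell and glia markers 1 to 3, of 6 endothelial markers 1 to 5 and of 8 macrophage markers 0 or 1. In the tables of 3 weeks, 8 weeks, 11 weeks and TNF, in that order, regions of endothelial markers passed as 0, 1, 3 and 1 gained and 4, 0, 0 and 4 lost. Those of Schwann cell and glia markers passed as 1, 0, 1 and 0 gained and 3, 2, 0 and 2 lost, of neuron markers as 0, 0, 2 and 0 gained and 1, 1, 0 and 1 lost, and of fibroblast markers as 4, 0, 1 and 1 gained and 1, 1, 0 and 2 lost. The 1 macrophage region was lost in each table that listed one. Marker regions thus moved both ways, and their part in the results was not tested.

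The member genes are long and their regions lie deep inside them. Their median length was 227 kb, against 32.2 kb for the other listed genes, and 40 of 55 (72.7%) exceeded 100 kb, against 19.4%. Of the 244 regions, 213 (87.3%) lay in gene bodies and 161 (66.0%) in gene bodies more than 100 kb from the start. Only 31 (12.7%) were of promoter class, within 3 kb of a start on either side. No member region is intergenic, because intergenic regions carry no gene name in the tables. Of the genes, 10 were listed in all 4 tables and 22 in 1 table.

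At 3 weeks 57 of the 67 member regions passed, 24 gained and 33 lost, where 85.0% of all regions passed (40.3% gained, 44.7% lost). Members listed as gained had a low WT level (median 23.8 normalized reads) and those listed as lost a high one (median 234), as in the whole table (19.2 and 260). The 3 Tg197 libraries lay all above or all below the 3 WT libraries in 88.1% of members and in 86.1% of all regions. The median absolute fold was 0.48 on the log2 scale, and 15 members passed with an absolute log2 fold of at least 1. In 26 members (38.8%, against 37.2% of all regions) counting error alone of the recovered reads, taken as independent, gave a binomial p more than 10 times the one the authors list. The share listed as gained was 40.3%, beside 43.4% in the table and 41.0% in regions of like WT level, so the members were split much like their table.

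At 8 weeks 35 of 66 member regions passed, 15 gained and 20 lost, where 54.0% of all regions passed (17.4% gained, 36.6% lost). The count was 0 without Tg197 library 1, Tg197 library 3, WT library 1 or WT library 2, with 32, 33, 28 and 28 members at an unadjusted limma p under 0.05, and it was 21 without WT library 3. In those same 4 fits 0 of all 11975 regions passed, while without Tg197 library 2 the member count was 46. Tg197 and WT libraries did not overlap in 69.7% of members and in 69.6% of all regions. The gene Odz2 held 26 of the 66 regions. In the main fit 13 of the 40 regions outside Odz2 passed, 6 gained and 7 lost. Members listed as gained stood higher in Tg197 libraries 1 and 3, with median log2 ratios to the WT mean of 0.99 and 0.74, than in library 2 at 0.28. Members listed as lost were low in all 3 Tg197 libraries (medians -1.26, -1.11 and -1.32). The share listed as gained was 54.5%, beside 48.5% in the table and 48.5% at like WT level. For gene-body members set against gene-body regions, a match chosen after seeing the data, it was 52.6% beside 33.0% at like WT level, a gap of 19.7 percentage points in place of 6.0. With adjustment over all windows of the genome, 0 members and 0 of all listed regions passed (47 members at an unadjusted limma p under 0.05), and with a pseudocount of 0.1 the member count was 0 as well (46 unadjusted).

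At 11 weeks 35 of 45 member regions passed, 25 gained and 10 lost, where 77.9% of all regions passed (49.7% gained, 28.2% lost). Members listed as gained started from very little capture (median WT level 7.47 normalized reads) and those listed as lost from more (median 139), against 13.0 and 105 in the table. Tg197 and WT libraries did not overlap in 84.4% of members and in 83.7% of all regions. The count was 0 without Tg197 library 1, Tg197 library 3 or WT library 2, with 29, 33 and 32 members at an unadjusted limma p under 0.05, and at most 10 of all 7309 regions passed in those fits. The share listed as gained, 55.6%, stood beside 54.2% in the table and 55.0% at like WT level. With adjustment over all windows 0 members and 0 of all listed regions passed, with 36 members at an unadjusted limma p under 0.05. Odz2 held 17 of the 45 regions. In the main fit 18 of the 28 regions outside Odz2 passed, 14 gained and 4 lost.

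After TNF 61 of 66 member regions passed, 38 gained and 23 lost, where 93.8% of all regions passed (29.8% gained, 64.1% lost). Treated and untreated libraries did not overlap in 97.0% of members and in 95.8% of all regions. The directions were the reverse of the table's majority: 63.6% of members were listed as gained, beside 33.8% of all regions and 43.0% of regions of like WT level. The gap of 20.6 percentage points lay between 17.8 and 29.2 under every other way of matching that was run. Regions more than 100 kb inside genes gave the same picture, with 68.6% of 35 members gained beside 36.4% of the other such regions and 47.8% of those at like level. Regions are not replicates and were listed for a difference, so this share is a description without a test. Among members listed as gained the changes were small, with a median log2 ratio to the WT mean of 0.68 in libraries 1 and 2, which are 1 sample, and 0.61 in library 3. Members listed as lost stood at -1.42 and -1.34. The count of passing members was 39 without the merged library, which leaves 1 treated sample. With adjustment over all windows 0 members and 0 of all listed regions passed, with 61 members at an unadjusted limma p under 0.05.

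**Figure D1:**
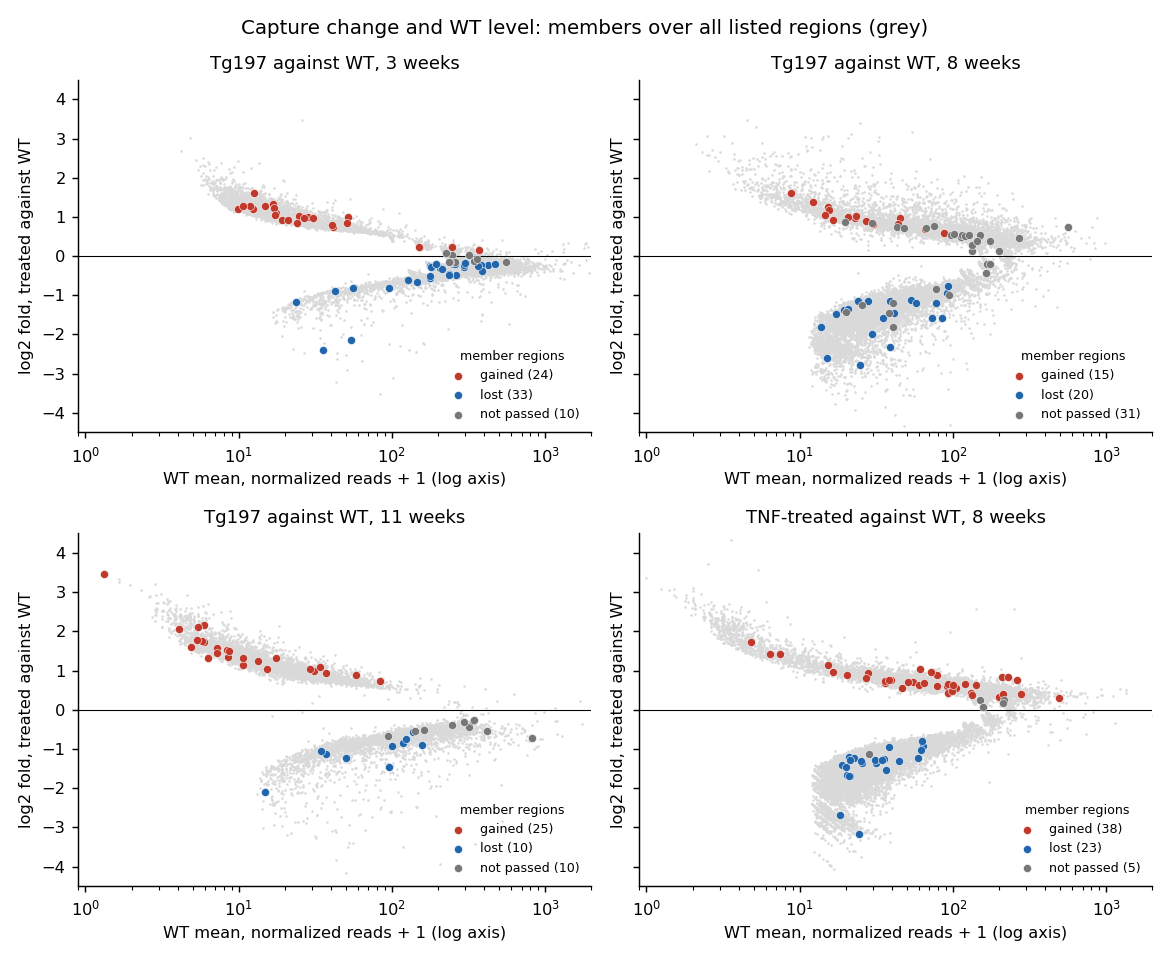
Each panel plots the log2 fold of listed regions (vertical axis, treated against WT) against their WT mean in normalized reads plus 1 (log axis), with all regions in grey and member regions in colour by call. Members follow the same curved bands as the grey regions, with gains at low and losses at high WT level at 3 and 11 weeks, and after TNF 38 members lie among the gains and 23 among the losses.

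**Figure D2:**
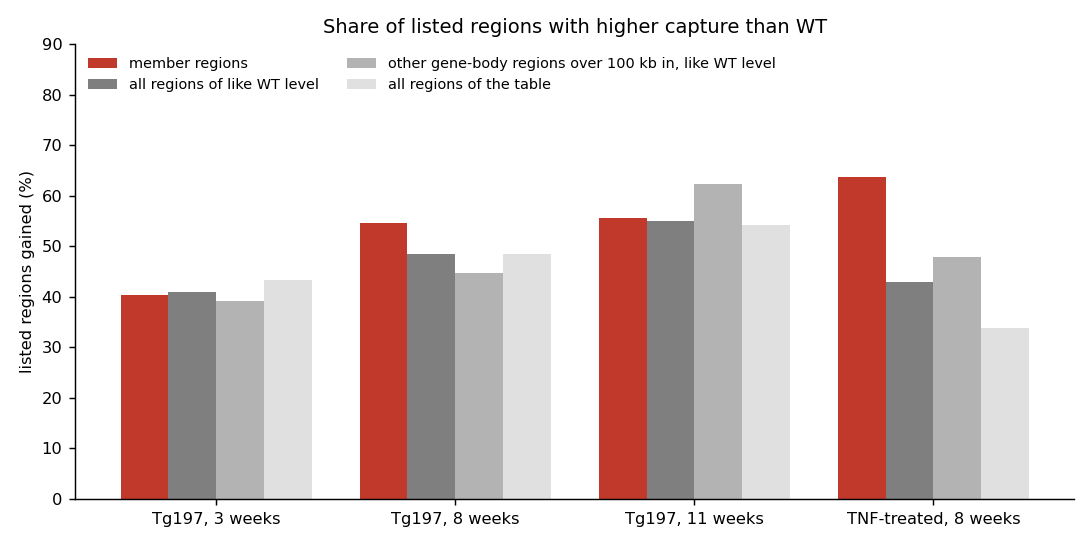
Bars give the percentage of listed regions with higher capture than WT, for member regions, all regions of like WT level, other gene-body regions more than 100 kb from a start at like WT level, and all regions of the table. The member bar stands at 63.6% after TNF, above 43.0%, 47.8% and 33.8%, and within 6.0 points of the bar of all regions of like WT level in the 3 Tg197 comparisons. The bar of other regions more than 100 kb from a start (47.8% after TNF) was matched to members of that depth only. Of those members 68.6% were gained after TNF.

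Teneurins held 80 of the 244 regions (66 passed), protocadherins 45 (32 passed), Cntnap genes 30 (20), contactins 21 (19), Fat genes 18 (13), neurexins 16 (12), Csmd genes 15 (12), Dscam genes 11 (9), neuroligins 7 (4) and Lrrtm 1 (1). These counts pool the 4 comparisons, in which 85.0%, 54.0%, 77.9% and 93.8% of all regions passed at 3, 8 and 11 weeks and after TNF. The passing counts of families therefore depend on where their regions were listed and do not rank the families. After TNF, 12 of 14 protocadherin regions, 6 of 7 contactin regions and 4 of 5 neurexin regions passed as gained, while 5 of 7 Fat regions and 3 of 4 Dscam regions passed as lost. The WT levels of these families differed too, with medians of 150 normalized reads for contactins and 95.2 for protocadherins, against 30.4 for Fat and 33.8 for Dscam. At like WT level 67.5% and 51.2% of regions were gained for the contactin and protocadherin regions, and 28.0% and 22.3% for the Fat and Dscam regions. At 8 weeks 10 of 12 protocadherin regions were listed as gained but 2 passed, where 54.0% of all regions passed. At like WT level 66.0% of regions were listed as gained. The regions at Pcdh19 and Pcdh11x lay on X, where 94.4% were.

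**Figure D3:**
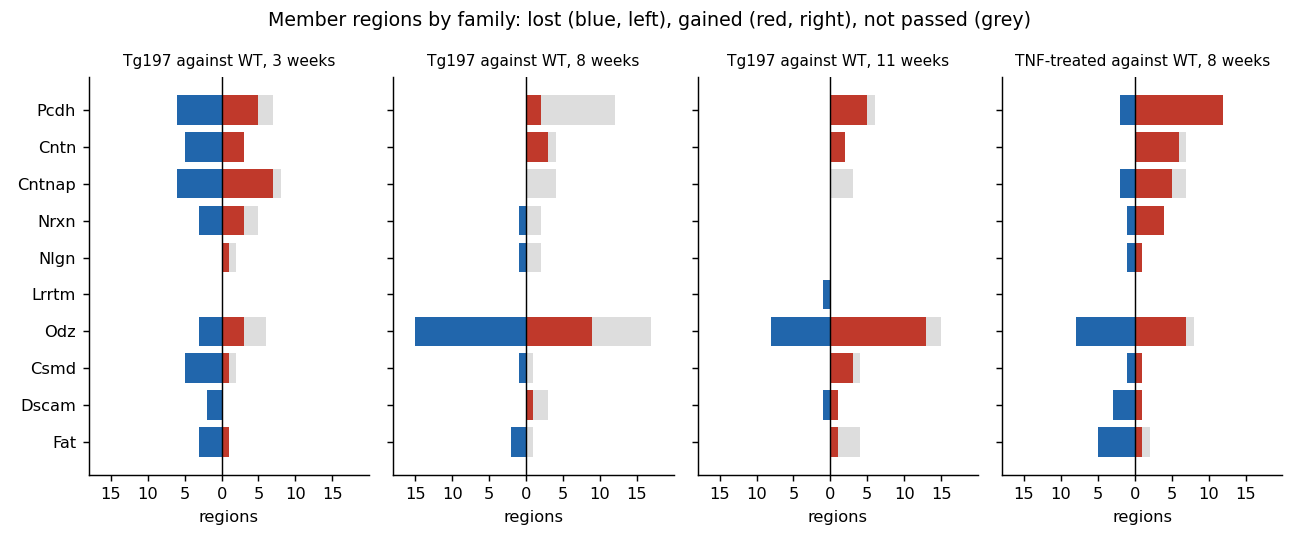
Horizontal bars count member regions per family and comparison, lost to the left, gained to the right, and regions that did not pass, of either direction, in grey at the right end. After TNF the protocadherin bar holds 12 gained and 2 lost regions and the Fat bar 1 gained and 5 lost, and Odz regions dominate at 8 and 11 weeks.

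The clustered protocadherins contributed 25 regions, 20 of promoter class and 5 in gene bodies. Of the 20, 2 lay within 1 kb of a start and 18 at 1 to 3 kb. At 3, 8 and 11 weeks each clustered promoter-class region was centred after its listed start, inside the gene. These values are therefore not those of the stretch before the start. At 11 weeks capture rose at the 2 listed clustered regions. The Pcdhgb1 region (chr18:37840201-37840700, within 1 kb of the start) held 5.44, 5.58 and 1.95 normalized reads in WT and 12.0, 13.7 and 25.9 in Tg197, a log2 fold of 1.79 (SE 0.52, limma adjusted p = 0.0219). The Pcdhb2 region (chr18:37455001-37455500, within 1 kb) held 5.44, 13.0 and 10.7 in WT and 25.5, 20.6 and 27.6 in Tg197 (log2 fold 1.32, SE 0.39, adjusted p = 0.0219). All Tg197 libraries lay above all WT libraries at both, from a WT level of a few reads, where 100.0% of the regions at like WT level were listed as gained.

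At 3 weeks 9 clustered regions were listed, and 3 passed as gained and 4 as lost, where 85.0% of all regions passed. Of the 9, 44.4% were listed as gained, beside 16.6% of regions at like WT level, a description without a test. The Pcdhga10 region (chr18:37907601-37908150) held 59.2, 32.6 and 57.9 in WT and 88.6, 86.8 and 85.1 in Tg197 (log2 fold 0.84, SE 0.19, limma adjusted p = 0.00237). Another Pcdhgb1 region, 1 to 3 kb from the start and separate from the one listed at 11 weeks (chr18:37841201-37841700), went the other way, from 162, 107 and 167 to 104, 88.6 and 80.1 (log2 fold -0.65, SE 0.15, adjusted p = 0.00231). These were the largest changes of the 9, and the groups do not overlap at either. The other passing regions moved little: Pcdha2 by 0.22, Pcdhgc5 by -0.20, and Pcdhga12 by -0.19 and 0.16 at regions that share bases. The Pcdhb22 gene-body region, named after its values were seen, fell by 0.50. Pcdha1 (-0.08) and Pcdhb4 (0.03) did not pass.

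At 8 weeks 5 of 7 clustered regions were listed as gained, where 67.0% of regions at like WT level were, and 1 passed. It was a gene-body region of Pcdha7 (chr18:37142151-37142950), named after its values were seen. It held 41.4, 42.0 and 45.3 in WT and 80.9, 77.5 and 72.1 in Tg197 (log2 fold 0.83, SE 0.19, limma adjusted p = 0.0428). The promoter-class regions of Pcdhgb5 (375, 94.1 and 178 in Tg197, against 138, 132 and 156 in WT), Pcdhgc5 (233, 118 and 222, against 121, 119 and 138) and Pcdhb18 (243, 167 and 250, against 143, 136 and 170) did not pass. Tg197 library 2 was the lowest of its group at each of these 3, and at Pcdhgb5 and Pcdhgc5 it lay below every WT library. Pcdhb9 (log2 fold -0.21) and Pcdha6 (-0.20) did not pass either.

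After TNF all 7 clustered regions passed, 5 gained and 2 lost, where 93.8% of all regions passed and 48.0% of those at like WT level were gained. The Pcdhgb4 promoter-class region (chr18:37882151-37882650) held 47.1, 44.2 and 57.8 in untreated cells and 76.7 and 86.8 in the 2 distinct TNF-treated libraries (log2 fold 0.71, SE 0.20, limma adjusted p = 0.0109). Pcdha2 rose at its promoter-class region by 0.69 (66.8, 57.9 and 66.4 to 92.6 and 114) and fell in its gene body by 1.32, a region named after its values were seen. Pcdha10 rose by 0.43, Pcdha7 by 0.39 and Pcdhb21 by 0.37. The Pcdha5 region (chr18:37122251-37122750) fell from 40.2, 41.1 and 18.4 to 11.0 and 13.6 (log2 fold -1.29, SE 0.40, adjusted p = 0.013). Promoter-class regions of the Pcdha cluster thus differed in direction after TNF. The Pcdha2 promoter-class region was listed at 3 weeks as well, overlapping by 300 bp.

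Non-clustered protocadherins signal through longer and more varied cytoplasmic tails. After TNF all 7 of their regions, in 6 genes, passed as gained, with log2 folds from 0.44 to 0.82 and a median of 0.64, where 54.5% of regions at like WT level were gained. Those at Pcdh19 and Pcdh11x lay on X, where 79.6% of all regions were listed as gained. Pcdh9, a protocadherin of the developing brain, had 1 region in each table. It rose at 11 weeks (chr14:93448301-93448800) from 31.3, 35.4 and 40.9 to 74.2, 66.4 and 65.5 (log2 fold 0.93, SE 0.22, limma adjusted p = 0.0219). At 3 weeks another Pcdh9 region (chr14:93778901-93779450) rose from 5.63, 7.24 and 21.6 to 36.7, 32.1 and 26.7 (log2 fold 1.60, SE 0.38, adjusted p = 0.00249). All Tg197 libraries exceeded all WT libraries at both. The 8-week promoter-class region of Pcdh9 did not pass (109, 127 and 120 in WT, 205, 143 and 169 in Tg197, adjusted p = 0.0511).

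Pcdh15, part of the tip links of hair cells, rose at 11 weeks (chr10:73986451-73987100) from 2.72, 5.58 and 0.97 to 14.4, 11.5 and 17.2 (log2 fold 2.06, SE 0.58, limma adjusted p = 0.0219). Its other region of 11 weeks (chr10:73457401-73457950), named after its values were seen, held 311, 297 and 280 in WT and 243, 234 and 234 in Tg197 and did not pass (log2 fold -0.32, SE 0.20, adjusted p = 0.157), though the groups do not overlap. At 8 weeks a different Pcdh15 region, named after its values were seen, rose by 0.83 (SE 0.28, adjusted p = 0.0443), and it was the only non-clustered protocadherin region of 5 that passed there. Pcdh17 fell at 3 weeks (chr14:84847351-84847850), from 26.3, 19.9 and 21.6 to 9.72, 12.3 and 6.92 (log2 fold -1.17, SE 0.31, adjusted p = 0.00316). The Pcdh17 groups do not overlap.

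Pcdh19, an X-linked protocadherin whose mutations cause epilepsy, had the longest member region (chrX:130220651-130225000, 4350 bp). It runs from -1469 to 2880 bp of the listed start and so spans the CpG-rich stretch printed above. At 8 weeks it held 552, 553 and 576 in WT and 1629, 434 and 1191 in Tg197 (log2 fold 0.75, SE 0.46, limma adjusted p = 0.169). Tg197 libraries 1 and 3 were far above WT and library 2 was below it, so the groups overlap and the difference did not pass. After TNF a region of 500 bp inside that region of 4350 bp, 1931 to 2430 bp after the start (chrX:130221101-130221600), rose from 97.6, 81.5 and 117 to 145 and 161 (log2 fold 0.64, SE 0.17, adjusted p = 0.0109). The comparisons share their WT libraries.

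The X-linked members at 8 weeks stand here beside all X regions. All 5 X regions of members were listed as gained. Of these, 0 passed limma (0 at an unadjusted p under 0.05, 0 with voom on recovered reads), and 94.4% of all X regions were listed as gained. Tg197 libraries 1 and 3 stood at median log2 ratios of 1.24 and 0.49 to the WT mean at these 5 regions, and library 2 at -0.04. Over all 981 X regions the medians were 1.14, 0.74 and -0.10, and the part of the X chromosome as a whole in the member values was not tested. Nlgn3, a neuroligin linked to autism, held 33.8, 30.0 and 22.1 in WT and 79.5, 22.1 and 75.0 in Tg197 at its proximal promoter (chrX:98494101-98495000, limma adjusted p = 0.162). Pcdh11x (log2 fold 0.53), Odz1 (0.57) and the gene-body region of Pcdh19 (0.39) did not pass. After TNF 80.0% of the 5 X members were listed as gained, beside 79.6% of all 603 X regions. Of these members, 4 X regions passed as gained, at Pcdh19, at Pcdh11x (0.82 and 0.44) and at Odz1 (1.42), and 1 as lost. That loss was in the gene body of Nlgn3 (chrX:98515451-98515950), from 23.1, 22.1 and 16.0 to 7.96 and 3.72 (log2 fold -1.70, SE 0.44, adjusted p = 0.0109). At 3 weeks the 1 X region, in Nlgn3, rose by 0.84 (19.7, 20.8 and 28.4 to 45.4, 40.5 and 38.6).

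**Figure D4:**
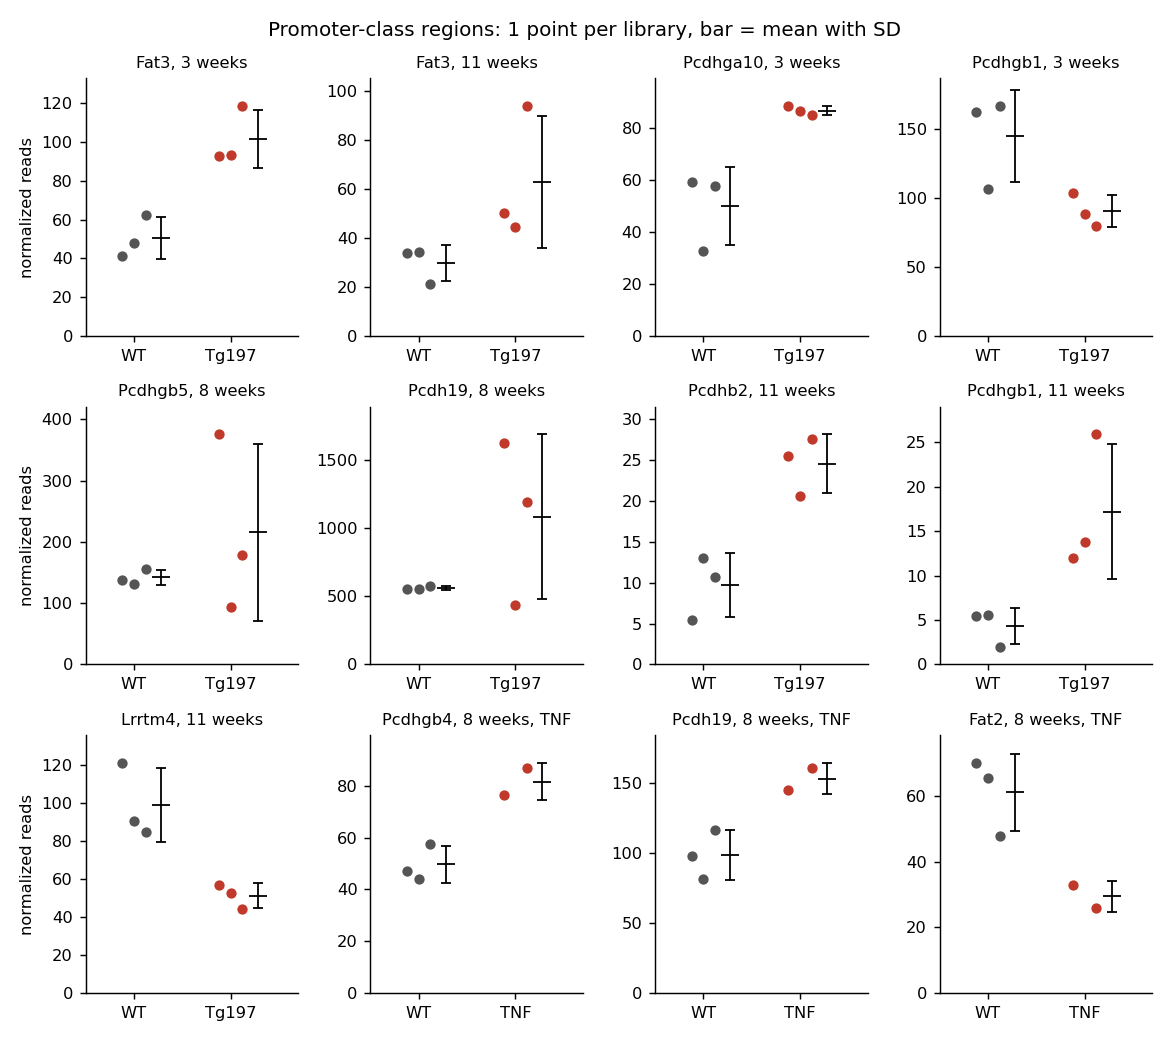
Each panel shows the normalized reads of 1 promoter-class region, 1 point per library in WT (grey) and Tg197 or TNF-treated cells (red), with the mean and SD as a bar, on an axis from 0. The 12 panels are a selection from the 31 promoter-class member regions. WT and treated points are apart in 10 of the 12 panels, while at Pcdhgb5 and Pcdh19 at 8 weeks the Tg197 library 2 (94.1 and 434) lies below all WT libraries. Over all promoter-class member regions the groups were apart in 70.0%, 33.3%, 100.0% and 100.0% at 3, 8 and 11 weeks and after TNF. Among all promoter-class regions of each comparison the shares were 86.9%, 53.2%, 81.6% and 97.1%.

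Contactins are Ig-domain proteins tethered to the membrane by a lipid anchor. At 8 weeks 4 of 4 contactin regions were listed as gained and 3 passed, and at 11 weeks 2 of 2 passed as gained, where 63.1% and 96.4% of regions at like WT level were gained. Cntn4 at 8 weeks (chr6:106459901-106460450) rose from 11.8, 7.49 and 14.4 to 23.9, 34.6 and 32.4 (log2 fold 1.38, SE 0.38, limma adjusted p = 0.0428). Cntn3 at 11 weeks (chr6:102157951-102158850) rose from 15.0, 5.58 and 16.6 to 30.3, 27.5 and 26.7 (log2 fold 1.25, SE 0.41, adjusted p = 0.0236). All Tg197 values lay above all WT values in both.

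Cntn5 was listed at the same place in the 8-week and the TNF tables (chr9:9852751-9853400). At 8 weeks it held 87.1, 82.4 and 89.5 in WT and 138, 106 and 153 in Tg197 (log2 fold 0.59, SE 0.19, limma adjusted p = 0.0435). In the TNF table it held 88.2, 83.8 and 99.5 without and 127 and 150 with TNF (log2 fold 0.61, SE 0.15, adjusted p = 0.0109). Both comparisons use the same WT libraries. A further Cntn5 pair of regions stood at 0.49 (not passed) and 0.60 (gained). At 3 weeks the Cntn5 region with the smallest authors' p (chr9:10194751-10195250) rose by only 0.23, from 135, 152 and 159 to 174, 177 and 171 (SE 0.09, adjusted p = 0.0227). The Cntn5 regions on either side of it, named after their values were seen, passed as lost. These were chr9:10193051-10193850 (log2 fold -0.23) and chr9:10198301-10198900 (log2 fold -0.22), so Cntn5 did not move one way at 3 weeks.

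Cntn4 also gave opposite directions at overlapping regions. At 3 weeks (chr6:105648451-105648950) it fell from 183, 170 and 170 to 161, 123 and 82.1 in Tg197 (log2 fold -0.57, SE 0.16, limma adjusted p = 0.00471). After TNF (chr6:105648251-105649050) it rose from 119, 245 and 260 to 387 and 320 (log2 fold 0.84, SE 0.28, adjusted p = 0.0162). Untreated library 1 was the lowest of its group there, and at both other Cntn4 regions listed after TNF. The ages and the treatments differ, and the difference itself was not tested. Cntn1, the contactin of the paranodal junction, did not pass after TNF (log2 fold 0.24, SE 0.13, adjusted p = 0.0973).

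Cntnap proteins are the membrane partners of contactins. Cntnap1, which anchors myelin loops beside the node, fell after TNF at a region 1 to 3 kb from its start (chr11:101039701-101040200), from 54.8, 74.7 and 57.8 to 31.9 and 32.2 (log2 fold -0.93, SE 0.22, limma adjusted p = 0.0109). Cntnap2, which clusters potassium channels along axons, had 8 regions at 3 weeks. The Cntnap2 region with the largest gain (chr6:47136651-47137550) rose from 14.1, 18.1 and 9.09 to 25.9, 33.9 and 43.5 (log2 fold 1.28, SE 0.30, adjusted p = 0.0024). Another Cntnap2 region (chr6:46526851-46527350) fell slightly, from 189, 176 and 166 to 148, 150 and 147 (log2 fold -0.25, SE 0.08, adjusted p = 0.0121). Over the family at 3 weeks, 7 regions passed as gained and 6 as lost, of 14.

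At 8 and at 11 weeks 0 Cntnap regions passed limma, of 4 and 3, with 2 and 1 at an unadjusted p under 0.05 and 0 and 0 with voom on recovered reads. The Cntnap5b region at 8 weeks (chr1:102120901-102121800) held 299, 261 and 246 in WT and 651, 268 and 279 in Tg197, with 1 Tg197 library far above the rest (log2 fold 0.45, adjusted p = 0.257). In the TNF table the overlapping region rose from 300, 261 and 273 to 360 and 371 (log2 fold 0.40, SE 0.11, adjusted p = 0.0109). Another Cntnap5b region after TNF (chr1:102057751-102058250) rose from 5.99, 7.62 and 2.46 to 21.9 and 9.92 (log2 fold 1.42, SE 0.57, adjusted p = 0.0343). At Cntnap3, WT library 1 was the highest of its group at 11 weeks (1191, 609 and 669 in WT, 429, 542 and 479 in Tg197 at chr13:64979101-64980500, adjusted p = 0.0569). The overlapping Cntnap3 regions stood at -0.44 at 11 weeks (not passed) and 0.30 after TNF (gained).

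Neurexins passed as gained in 4 of 5 regions after TNF and as lost in 1, where 93.8% of all regions passed and 51.3% of those at like WT level were gained. Nrxn3 (chr12:91456101-91456600) was one of the gains, named after its values were seen, and rose from 38.5, 35.0 and 41.8 to 56.7 and 76.9 (log2 fold 0.77, SE 0.22, limma adjusted p = 0.0111). The loss was in Nrxn2 (chr19:6467951-6468450), also named after its values were seen, from 53.9, 61.7 and 70.0 to 30.9 and 39.7 (log2 fold -0.80, SE 0.22, adjusted p = 0.0109). Treated and untreated libraries do not overlap at either.

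At 3 weeks neurexin regions split evenly, 3 gained and 3 lost of 8. Nrxn3 (chr12:90498301-90498800) fell by 0.29, from 191, 178 and 172 to 152, 143 and 146 (SE 0.08, limma adjusted p = 0.00485). Nrxn2 at 8 weeks (chr19:6490651-6491150) did not pass (199, 182 and 212 in WT, 231, 203 and 218 in Tg197). No neurexin region was listed at 11 weeks.

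Among the neurexin partners, Nlgn1 fell at 8 weeks (chr3:25630551-25631550), from 107, 80.2 and 27.6 to 29.2, 24.2 and 11.8 (log2 fold -1.57, SE 0.56, limma adjusted p = 0.0492). Its WT libraries spread about as widely as the groups differ, and WT library 3 overlaps the Tg197 range. After TNF another Nlgn1 region (chr3:25449601-25450100) rose by 0.33 (193, 221 and 186 to 235 and 267, SE 0.13, adjusted p = 0.0278). Lrrtm4, a receiving-side partner of neurexins and of heparan sulfate proteoglycans, had a single region, listed at 11 weeks 1 to 3 kb from a start (chr6:79972351-79972850). It fell from 121, 90.3 and 84.8 to 56.7, 52.7 and 44.0 (log2 fold -0.93, SE 0.23, adjusted p = 0.0219), with every Tg197 library below every WT library. At its WT level 3.29% of regions were gained.

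Teneurins gave the most regions, and most of those came from 1 gene. Odz2 (teneurin 2, chr11:35820170-36757744, 938 kb, minus strand) had 26 regions at 8 weeks and 17 at 11 weeks, but 1 at 3 weeks and 3 after TNF. At 8 weeks no other of the 3959 listed genes had as many (the next, Galnt10, had 18), and at 11 weeks Odz2 ranked 2 of 2666, after Sfi1 with 19. Genes over 500 kb had a median of 2 regions in both tables, and at most 12 and 11 in any other. Stretches of the same width beside the gene held 15 (beyond its end) and 2 (before its start) at 8 weeks, 4 and 3 at 11 weeks, and 11 and 0 at 3 weeks. The count thus stood above both flanks at 8 and 11 weeks and below the flank beyond its end at 3 weeks and after TNF (15).

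Odz2 did not move one way. At 8 weeks 22 of its 26 regions passed, 9 gained and 13 lost, where 54.0% of all regions passed. At 11 weeks 17 of 17 passed, 11 gained and 6 lost, where 77.9% of all regions passed. The share of Odz2 regions listed as gained was 38.5% at 8 weeks and 64.7% at 11 weeks, close to the 36.4% and 59.9% of regions at like WT level. Along the gene the direction changed between neighbours in 13 of 25 pairs at 8 weeks, with a median gap of 11.5 kb, and in 10 of 16 pairs at 11 weeks, with a median gap of 29.5 kb. Most regions lay in the far part, 20 of 26 and 14 of 17 more than 500 kb from the start, and none was centred within 84.6 kb of it. Regions listed as gained had a lower WT level (median 17.6 and 6.22 normalized reads at 8 and 11 weeks) than those listed as lost (37.6 and 106). In the whole tables the order was the same at 11 weeks (13.0 and 105) and the other way round at 8 weeks (72.1 and 30.9).

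**Figure D5:**
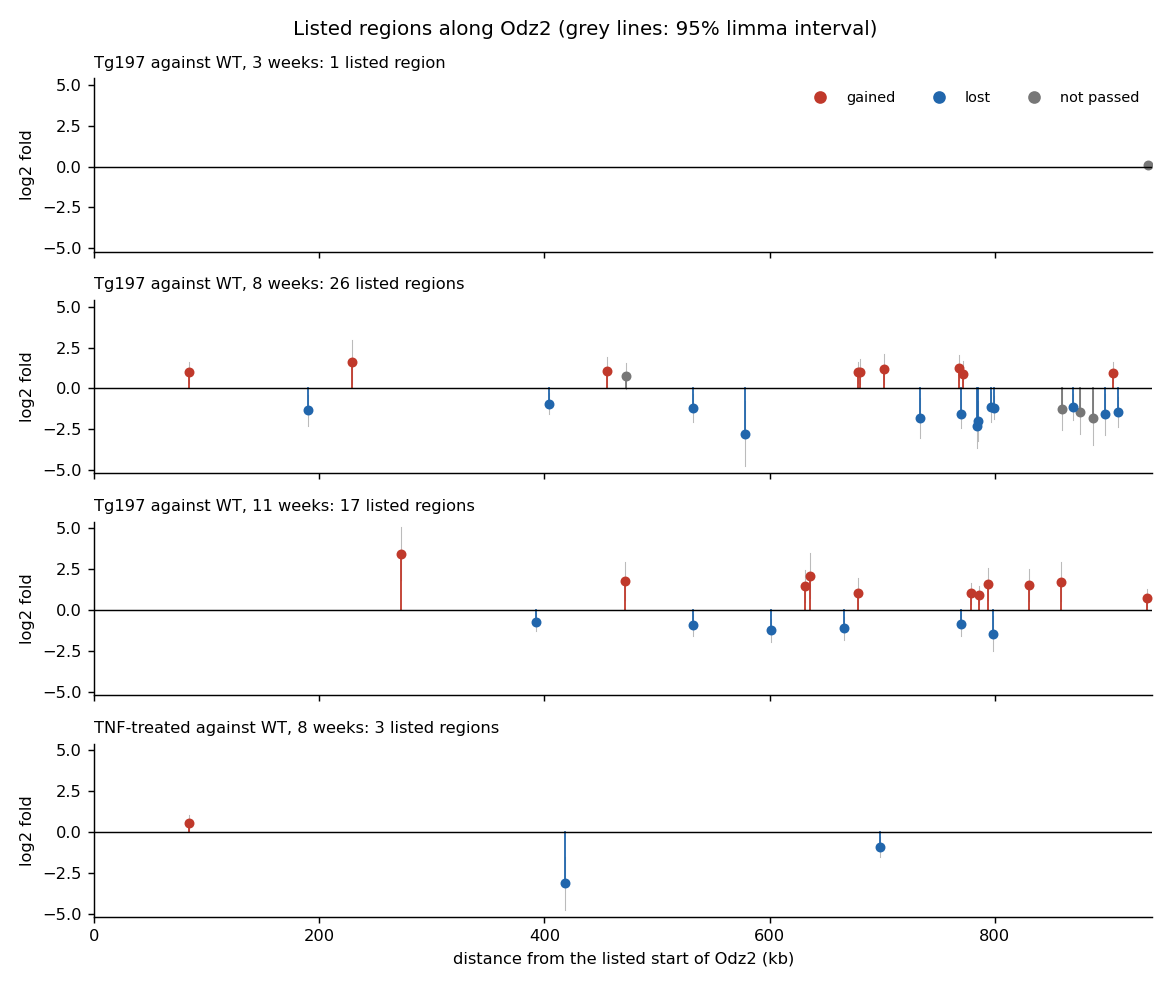
Each stem is 1 listed region of Odz2, placed by its distance from the listed gene start in kb, with its log2 fold as height, its call as colour and the 95% limma interval as a grey line, in 1 panel per comparison. Stems up and down stand in mixed runs at 8 weeks (26 regions) and 11 weeks (17 regions), mostly beyond 500 kb, and neighbours differ in direction in 13 of 25 and 10 of 16 pairs, while 3 weeks has 1 stem and TNF has 3.

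Of the Odz2 regions, 5 overlapped between 8 and 11 weeks, comparisons that share no library, and at 4 of these both passed with the same direction. The region 799 kb from the start (chr11:35958451-35959350) held 77.0, 81.7 and 69.6 in WT and 23.9, 49.1 and 29.4 in Tg197 at 8 weeks (log2 fold -1.20, SE 0.30, limma adjusted p = 0.0428). At 11 weeks its counterpart held 99.3, 102 and 83.8 in WT and 14.4, 36.7 and 72.4 in Tg197 (log2 fold -1.46, SE 0.48, adjusted p = 0.0233). Every Tg197 library was below every WT library at both ages, with a wide spread within Tg197 at 11 weeks. The region at 770 kb fell by 1.57 at 8 weeks (107, 80.2 and 65.2 to 25.2, 44.3 and 17.7) and by 0.85 at 11 weeks (117, 114 and 120 to 46.3, 52.7 and 109).

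The Odz2 region at 532 kb fell by 1.20 at 8 weeks (58.3, 39.7 and 70.7 to 33.1, 15.9 and 23.5) and by 0.91 at 11 weeks (173, 150 and 141 to 51.1, 103 and 102). The region at 678 kb rose at both ages, by 0.99 (20.3, 21.0 and 17.7 to 39.8, 45.0 and 35.3) and by 1.05 (16.3, 13.0 and 13.6 to 42.3, 43.5 and 15.5). At that place Tg197 library 3 of 11 weeks lay within the WT range, while the groups of 8 weeks do not overlap. At 860 kb the regions shared 50 bp and stood at -1.24 (not passed) and 1.73 (gained). Overlap with the other age covered 7.58% of the 8-week members and 11.1% of the 11-week members, all of it at Odz2, beside 2.76% and 4.47% of all regions.

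The largest Odz2 losses at 8 weeks lay at 578 kb (27.1, 23.2 and 21.0 in WT, 0.0, 11.1 and 2.94 in Tg197, log2 fold -2.77, SE 0.86, limma adjusted p = 0.0428) and at 784 kb (47.4, 36.0 and 31.0 in WT, 2.65, 6.92 and 14.7 in Tg197, log2 fold -2.32, SE 0.56). The largest gains there were at 229 kb (1.62), 768 kb (1.26) and 702 kb (1.17). At 11 weeks the region at 273 kb (chr11:36484551-36485050) held 0.0, 0.0 and 0.97 in WT, which is 1 read in all, and 9.57, 11.5 and 19.0 in Tg197, which is 44 reads. The ratio of these reads, corrected for library size, was 38.0 with an exact binomial 95% interval from 6.47 to 1530 that covers counting error only. That interval takes reads as independent molecules, which they are not, and may be too narrow. After TNF the region at 418 kb fell from 30.0, 25.9 and 14.7 to 5.97 and 0.0 (log2 fold -3.16, SE 0.74, adjusted p = 0.0109). The region at 84.6 kb was gained in both tables of 8 weeks, by 0.98 in Tg197 and 0.56 after TNF, with shared WT libraries.

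The other teneurins had 15 regions at Odz3, 16 at Odz4 and 2 at Odz1. Odz4 lost capture at 8 weeks 151 kb from its start (chr7:103510301-103510800), from 20.3, 12.7 and 8.84 to 0.0, 4.15 and 1.47 (log2 fold -2.61, SE 0.69, limma adjusted p = 0.0428). Near its start, overlapping Odz4 regions went opposite ways at 11 weeks and after TNF. At 11 weeks (chr7:103361951-103362550) the values were 6.80, 9.31 and 6.82 in WT and 12.8, 21.8 and 44.0 in Tg197 (log2 fold 1.50, SE 0.47, adjusted p = 0.0219). After TNF (chr7:103362051-103362700) they were 19.7, 24.4 and 17.2 without and 7.96 and 7.44 with TNF (log2 fold -1.29, SE 0.38, adjusted p = 0.0117). The difference between these folds was not tested.

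Another Odz4 region (chr7:103592451-103593150) rose after TNF from 140, 122 and 157 to 192 and 244 (log2 fold 0.64, SE 0.15, limma adjusted p = 0.0109). At 3 weeks the same region did not pass (225, 237 and 253 in WT, 200, 217 and 222 in Tg197, adjusted p = 0.0525). A further loss after TNF, 25.5 kb from the start, took Odz4 from 25.7, 19.8 and 14.7 to 5.97 and 4.96 (log2 fold -1.68, SE 0.42, adjusted p = 0.0109). Odz3 at 3 weeks (chr8:49415901-49416400) fell by 0.34, from 219, 208 and 207 to 150, 176 and 173 (SE 0.08, adjusted p = 0.00251).

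Csmd1, a very large membrane protein that restrains complement, had 13 of the 15 regions of its family. At 11 weeks 3 of 3 Csmd1 regions passed as gained, at WT levels where 84.2% to 100.0% of all regions were listed as gained. The largest (chr8:16740851-16741650) rose from 1.36, 5.58 and 7.80 to 29.5, 11.5 and 31.0 (log2 fold 2.16, SE 0.60, limma adjusted p = 0.0219). At 3 weeks the family had 1 gain and 5 losses. The Csmd1 gain (chr8:16796151-16796800) went from 14.1, 12.7 and 20.5 to 40.0, 38.7 and 43.5 (log2 fold 1.34, SE 0.25, adjusted p = 0.00163). The listed Csmd1 loss with the smallest authors' p (chr8:16790401-16790900) was slight, from 179, 186 and 169 to 138, 154 and 143 (log2 fold -0.29, SE 0.08, adjusted p = 0.00485).

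A Csmd1 region was lost in both tables of 8 weeks, which share WT libraries. In Tg197 (chr8:16008551-16009050) it fell from 13.5, 18.7 and 16.6 to 7.95, 2.77 and 5.88 (log2 fold -1.48, SE 0.47, limma adjusted p = 0.0428), and with TNF by 1.42 (13.7, 21.3 and 18.4 to 3.98 and 8.68). A Csmd1 gain after TNF (chr8:16197151-16197700) went from 12.0, 13.7 and 17.2 to 26.9 and 39.7 (log2 fold 1.15, SE 0.35, adjusted p = 0.0121). At chr8:17041651-17042150 Csmd1 fell by 0.19 at 3 weeks, while the overlapping 8-week region did not pass (0.13).

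Dscam, which keeps sister branches of neurons apart, was lost after TNF in 3 of its 4 regions, as above. The Dscam region with the smallest authors' p (chr16:96865501-96866000) fell from 22.3, 24.4 and 27.0 to 6.97 and 11.2 (log2 fold -1.37, SE 0.37, limma adjusted p = 0.0109). The 3 losses lie within chr16:96841251-96866000, and the gain lies apart from them. At 3 weeks Dscam fell by 0.31 (222, 204 and 191 to 153, 175 and 167), and at 8 weeks its region did not pass (55.8, 68.9 and 71.8 in WT, 144, 73.4 and 116 in Tg197). The related Dscaml1 gave a loss and a gain side by side at 11 weeks. The Dscaml1 loss (chr9:45348551-45349050) went from 13.6, 13.0 and 14.6 to 5.58, 0.0 and 5.17 (log2 fold -2.10, SE 0.76, adjusted p = 0.0302). The Dscaml1 gain (chr9:45349651-45350500) went from 10.9, 3.72 and 7.80 to 20.7, 16.0 and 20.7 (log2 fold 1.34, SE 0.44, adjusted p = 0.0233). At 3 weeks Dscaml1 fell by 0.90 (38.5, 46.2 and 39.8 to 17.3, 28.3 and 20.8).

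Fat3, an atypical cadherin of neuronal layering, was the 1 member gene gained at a promoter-class region at both 3 and 11 weeks. The regions were centred 0.673 and 0.699 kb after the listed start, inside the gene. That start had no RefSeq match within 60 bp. At 3 weeks (chr9:16181501-16182500, within 1 kb of a listed start) capture rose from 41.3, 48.0 and 62.5 to 92.9, 93.4 and 119 (log2 fold 1.00, SE 0.17, limma adjusted p = 0.00146). At 11 weeks the region at the same start position (chr9:16181501-16182450) rose from 34.0, 34.4 and 21.4 to 50.3, 44.7 and 94.0 (log2 fold 1.00, SE 0.34, adjusted p = 0.0247). Every Tg197 library lay above every WT library at both ages, which share no library. Deeper in the gene Fat3 was lost at 3 weeks. The region at chr9:16142551-16143100 held 27.2, 38.9 and 37.5 in WT and 9.72, 13.2 and 0.99 in Tg197 (log2 fold -2.39, SE 0.53, adjusted p = 0.00208), and the one at chr9:16060051-16060550 held 50.7, 61.5 and 47.7 and then 24.8, 33.9 and 0.99 (log2 fold -2.15, SE 0.69, adjusted p = 0.00921). Tg197 library 3 was nearly empty at both.

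Fat3 was lost in the gene body at 8 weeks as well (chr9:15727301-15727950), from 44.0, 65.2 and 48.6 to 18.6, 26.3 and 26.5 (log2 fold -1.11, SE 0.29, limma adjusted p = 0.0428). After TNF Fat3 fell at chr9:15742751-15743300 by 1.37 (34.3, 27.4 and 29.5 to 8.96 and 13.6) and at chr9:16085301-16086100 by 2.69 (18.8, 19.8 and 13.5 to 6.97 and 0.0, SE 0.76, adjusted p = 0.011). Fat2, a cadherin of epithelia and of cerebellar granule cells, fell after TNF 408 to 1057 bp inside its start (chr11:55124701-55125350), from 70.2, 65.5 and 47.9 to 32.9 and 26.0 (log2 fold -1.02, SE 0.24, adjusted p = 0.0109). The stretch before that start, printed above, holds 3 CpG and was not itself listed. Fat1, the family member of smooth muscle and many epithelia, fell by 0.26 at 3 weeks in a region 2440 to 2939 bp after its start (389, 347 and 358 to 318, 317 and 281, adjusted p = 0.00437). The overlapping 8-week region of Fat1 did not pass (162, 172 and 155 in WT, 115, 132 and 116 in Tg197, adjusted p = 0.0533).

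Related genes outside the naming rule were counted in the same way. Of cadherins outside the rule, 15 gained and 16 lost regions passed of 36 at 3 weeks, 7 and 5 of 18 at 8 weeks, 17 and 7 of 25 at 11 weeks, and 14 and 33 of 49 after TNF. Neuronal adhesion genes of the immunoglobulin family, such as Nfasc and Lsamp, passed as 10 and 16 of 28, 8 and 2 of 26, 13 and 8 of 23, and 21 and 20 of 44. Synapse organizers passed as 11 and 17 of 35, 5 and 10 of 32, 10 and 7 of 19, and 18 and 32 of 53. After TNF these 3 lists were listed as gained in 30.6%, 54.5% and 37.7% of regions, against 63.6% for the members, and at like WT level in 29.6%, 45.6% and 31.9%. The regulators of the protocadherin clusters had 3 to 14 regions per table, and these passed as 5 gained and 8 lost of 14, 0 and 3 of 7, 1 and 1 of 3, and 5 and 5 of 10. Among those, Dnmt1, which copies methylation to the new DNA strand, rose in its gene body at 3 weeks (63.0 ± 4.48 to 116 ± 6.78, SD, n = 3 per group, log2 fold 0.87, limma adjusted p = 0.000842) and at 11 weeks (52.4 ± 8.92 to 110 ± 28.9, log2 fold 1.03, adjusted p = 0.0219). Another Dnmt1 region fell at 11 weeks by 0.55 (176 ± 17.1 to 120 ± 7.4, limma adjusted p = 0.0328). Dnmt3a fell after TNF in its gene body, from 20.1 ± 3.63 (n = 3) to 5.71 ± 2.45 (n = 2), a log2 fold of -1.69 (adjusted p = 0.0109). Of the other regulators named by the same rule, Rad21 fell at 3 weeks (log2 fold -0.22) and Ehmt1 at 8 weeks (-1.48). Stag2 rose after TNF (1.07), and its 8-week region did not pass (0.88).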

How the data were processed

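MethylCap-seq libraries were made from DNA sonicated to an average of 250 bp, with low- and high-salt fractions combined, and read as 100 bp pairs, per the labels' protocols. The submitters' processing notes name BWA, TopHat, TopHat2, Cufflinks, Cuffdiff and mm9 without roles. Which program compared the groups is not given in the sources used here. Signal deposited for each listed region consists, per the file headers, of normalized read values, 1 per library, and their group means, and the deposited log2 fold change, p-value and adjusted p-value are the authors'. No listed region had a window p above 0.0001, so every test is a retest of selected regions, and regions that were not listed have no value here. Treatment columns were taken to hold Tg197 or TNF-exposed cells, and 0 columns were left out. Whole reads were recovered within 0.1 for at least 99.98% of values and even numbers made up 57.0% to 68.4% of read numbers up to 20, so reads are not independent molecules.

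Each table was fitted whole and alone with limma 3.58.1 (R 4.3.3, mean trend, two-sided) on log2(value + 1), with Benjamini-Hochberg adjustment and no filter, and checked on simulated data. Members and lists were chosen with earlier results of these data known. "Like WT level" means the average, over members, of the share gained in their class among 20 equal classes of WT mean. Named regions are, per table, the one of smallest authors' adjusted p in each family, the 4 largest gains and 4 largest losses that passed and whose higher group averaged 10 or more, all promoter-class regions, overlaps between tables of at least 1 bp, X and clustered regions where under 6, and, in other lists, the one of smallest authors' p per direction. Others are marked where named, and results for 1 member gene are not reported here. Promoter sequences are from RefSeq (GRCm38.p6), matched by transcript accession. Alternatives were pseudocounts of 0.1 and 5, a minimum mean of 10, a minimum log2 fold of 1, omission of X and Y, limma voom on recovered reads, adjustment over all windows, omission of each library, and other matching classes.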

Additional observations from a re-analysis of the deposited data

Results flagged for a closer look

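At 3 places, overlapping regions of members went opposite ways in 2 comparisons, with every treated library on one side of WT in one comparison and on the other side in the other. At Cntn4 the log2 fold was -0.57 in Tg197 at 3 weeks and 0.84 after TNF at 8 weeks. At Odz4, 234 kb from the start, it was -0.16 at 3 weeks and 0.64 after TNF. At Odz4, about 3 kb from the start, it was 1.50 in Tg197 at 11 weeks and -1.29 after TNF. The difference between the comparisons was not tested at any of these, and the tables were normalized separately.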

How the results depend on the processing

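No paired analysis was possible because the values of a group stand in 1 cell whose order carries no replicate number. With a pseudocount of 0.1, 0 members passed at 8 weeks (46 at an unadjusted limma p under 0.05). With adjustment over all windows, whose number was taken as the smallest the deposited p and q-values allow, 0 members passed at 8 weeks, 11 weeks and after TNF (47, 36 and 61 at an unadjusted limma p under 0.05), and 42 passed at 3 weeks. With a minimum absolute log2 fold of 1, 15 passed at 3 weeks, 24 at 8 weeks, 26 at 11 weeks and 25 after TNF. Leaving out 1 library gave 52 to 54 passing members at 3 weeks, 0 to 46 at 8 weeks, 0 to 34 at 11 weeks and 39 to 60 after TNF. The other alternatives stayed within 1.5 times the main count (voom on recovered reads: 57, 34, 33 and 62, and the identical TNF libraries entered as 2: 64). The excess share of gained members over like WT level at 8 weeks was 6.0 percentage points, and 19.7 when gene-body members were set against gene-body regions, an alternative chosen after seeing the data. For gene-body members more than 100 kb from the start, set against other such regions, the excess was 5.3, also an alternative chosen after seeing the data. Without treated replicate 1, Pcdhgb5 at 8 weeks turned to -0.13 (adjusted p = 0.687) and Cntnap5b after TNF (chr1:101687101) to -0.02 (adjusted p = 0.897), and neither had passed before. Over the fits that leave out 1 library the folds ran from -0.13 to 0.86 and from -0.02 to 0.14. Without TNF replicate 1 the lone treated sample is assumed to vary like the other groups. Depth outside the listed regions is unknown, and WT levels of a few reads limit the gains at 11 weeks.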
